A study of Mus musculus with 4 samples.

Results

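Sparcl1, Sparc, Thbs1, Thbs2, Thbs3 and Thbs4 encode secreted proteins of the SPARC and thrombospondin families, and the SOX2 peaks of mouse cortex around these 6 genes are described here. A peak was included when its centre lay inside one of the gene spans or within 50 kb of it. This gave 46 peaks of 51249 in all, 16 of 17730 in immunoprecipitated (IP) library 1, 16 of 17628 in IP library 2 and 14 of 15891 in IP library 3. The 3 IP libraries came from cortex of male wild-type C57BL/6 mice aged 2 months, pulled down with a rabbit polyclonal antibody against SOX2, and 1 input library of the same tissue and age had no antibody. A label of all 4 samples, the input included, names SOX2 as a transduced factor, which the wild-type tissue of the protocol does not match, and it played no part in the grouping. Whole cortex was used, so strong binding in few cells and weak binding in many cells cannot be told apart. Peak positions offer no cell type markers with which to check the tissue label. The labels do not tie the IP libraries to separate mice or chromatin, so p-values measure only the spread between these libraries, which may be technical.

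SOX2 is a DNA-binding transcription factor of the SOX family that is made in neural stem cells and in astrocytes. Astrocytes secrete proteins that promote or restrain the formation of synapses between neurons. Hevin, the product of Sparcl1, promotes excitatory synapses by linking proteins across the synaptic cleft, the neuroligin encoded by Nlgn1 among them, and its relative SPARC counteracts hevin. Thrombospondins are large matrix glycoproteins that promote synapse formation through the neuronal calcium channel subunit encoded by Cacna2d1.

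Peaks of different libraries that overlapped by at least 1 bp were joined to regions, and a region with a peak in all 3 IP libraries is called reproducible. Normalized tags, the deposited tag number of a peak at a common library size of 10000000 tags, serve as its strength. The windows of the 6 genes held 23 regions, of which 10 were reproducible, 3 had peaks in 2 libraries and 10 a peak in 1 library. Of the 6 genes, 5 had a reproducible region within 50 kb, all except Thbs2, where the background over 21887 protein-coding genes was 46%. Counting a region only for the protein-coding gene nearest to it, Sparcl1, Sparc, Thbs3 and Thbs4 had one, 4 of 6 against a background of 22.6%. The same 4 genes had a reproducible region inside the span, against a background of 14.6%. Of the 10 reproducible regions, 4 lay nearer to another protein-coding gene than to the member. With 6 genes chosen when earlier results were known, these shares are a description and were not tested.

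**Figure D1:**
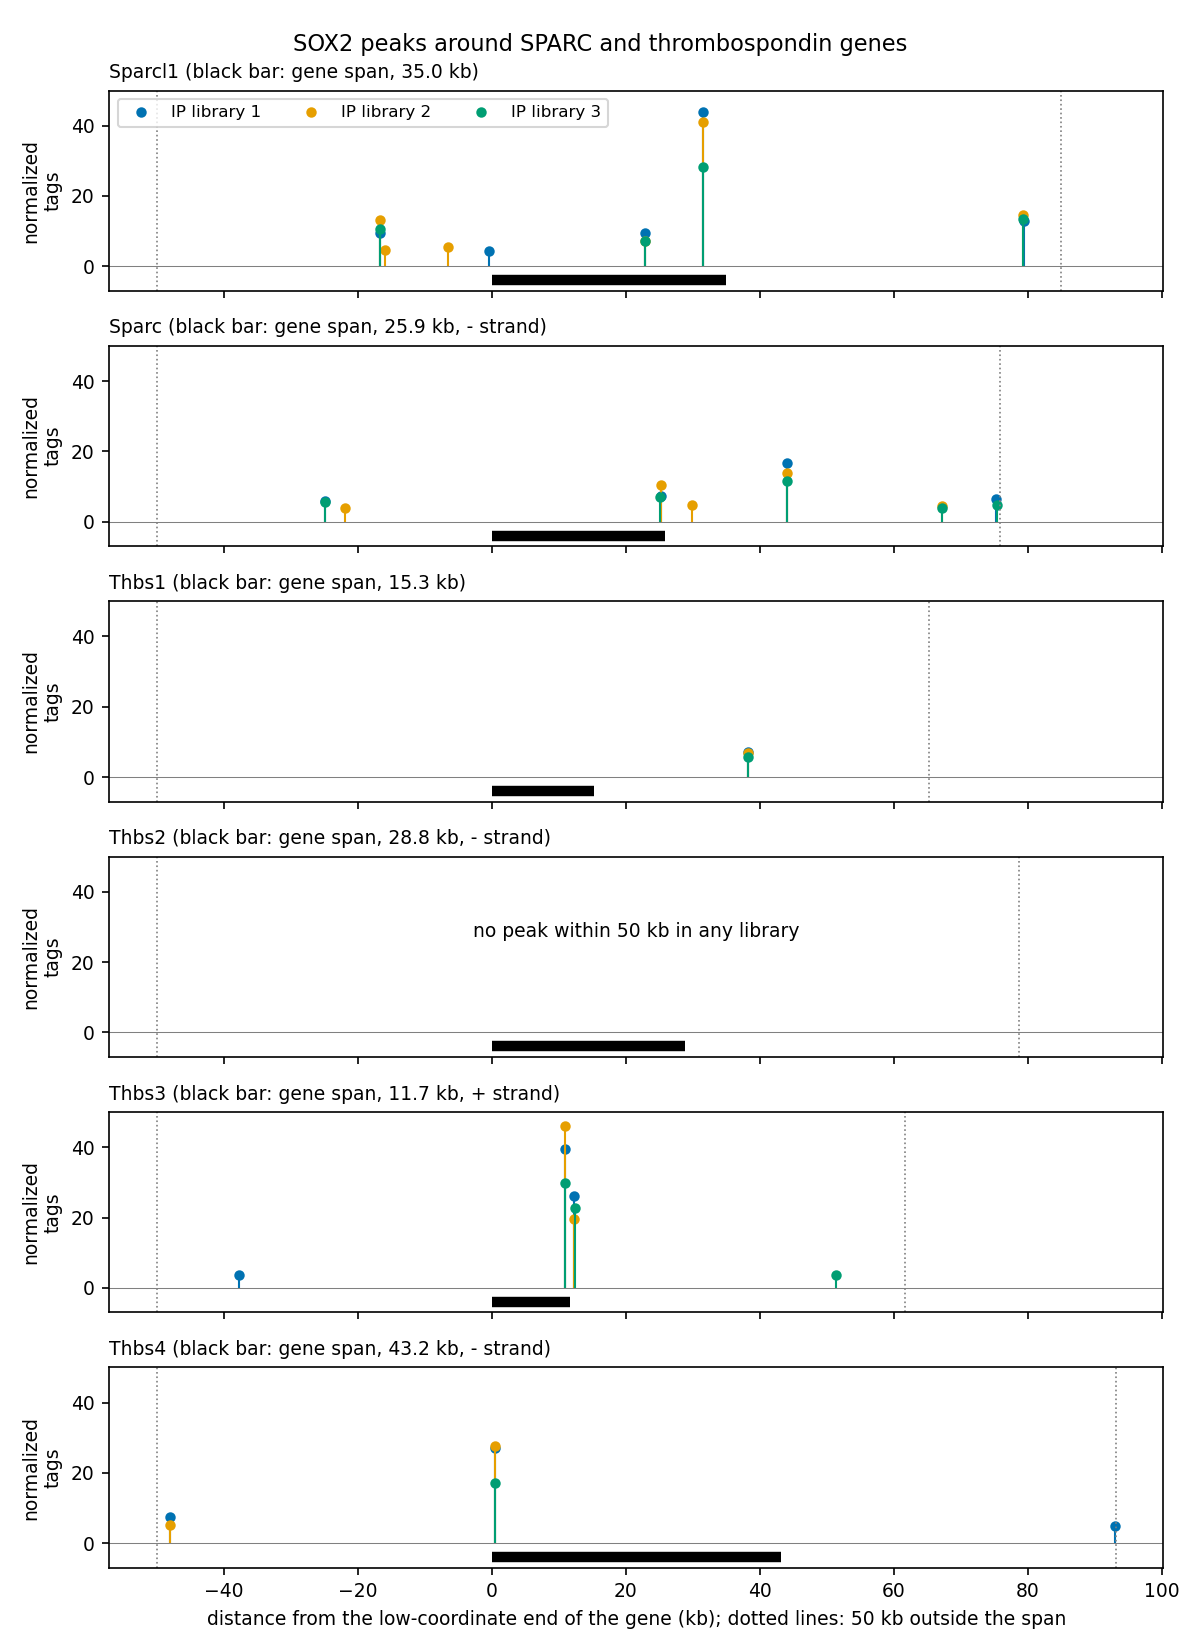
Authors' normalized tags of each SOX2 peak (vertical axis) against its distance in kb from the low-coordinate end of the gene (horizontal axis), 1 panel per gene and 1 colour per IP library; black bars are gene spans and dotted lines mark 50 kb outside them. The tallest peaks lie inside Sparcl1 and at the far end of Thbs3, and the Thbs2 panel has no peak.

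The strength of the regions differed widely. Inside Thbs3 and inside Sparcl1 lay regions of 38.4 ± 8.05 and 37.7 ± 8.37 normalized tags (SD, n = 3), at places 11 and 14 among the 9334 reproducible regions of the genome ordered by mean strength. Thbs4 followed with 24.0 ± 5.92 inside the gene. The strongest region in the Sparc window, with 14.0 ± 2.66, lay nearer to Atox1, and the only one in the Thbs1 window, with 6.55 ± 0.739, lay inside Fsip1 and below the median of 7.63 over all reproducible regions. Counting only regions to which no other protein-coding gene was nearer, Sparc had 8.29 ± 1.93 and Thbs1 had none. Of the 10 pairs among these 5 strongest regions, 9 had library values that did not overlap. The same share over pairs of all reproducible regions was not computed, so this count shows nothing particular to these genes. Each of those 9 had p = 0.1 in an exact two-sided permutation test (adjusted p = 0.111). That is the smallest p that 3 values against 3 allow, and it follows from the lack of overlap. Both regions of a pair were read in the same 3 libraries. In these 9 pairs the difference had the same sign in all 3 of them, which also follows from the lack of overlap. The difference was 14.4 ± 3.33 normalized tags for Thbs3 minus Thbs4 and 7.48 ± 1.97 for the Sparc window minus the Thbs1 window (SD, n = 3). Paired by library, each of the 9 had p = 0.25 in an exact two-sided permutation test, the smallest that 3 pairs allow and fixed by the shared sign. The difference between Thbs3 and Sparcl1 was 0.70 ± 4.88 normalized tags over libraries (SD, n = 3), and an exact two-sided permutation test gave p = 0.8 (adjusted p = 0.8). All 13 regions of 1 or 2 libraries were weak, and 4 of them had a member as the nearest protein-coding gene. Their means over the libraries with a peak were 3.58 to 6.33 normalized tags.

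**Figure D2:**
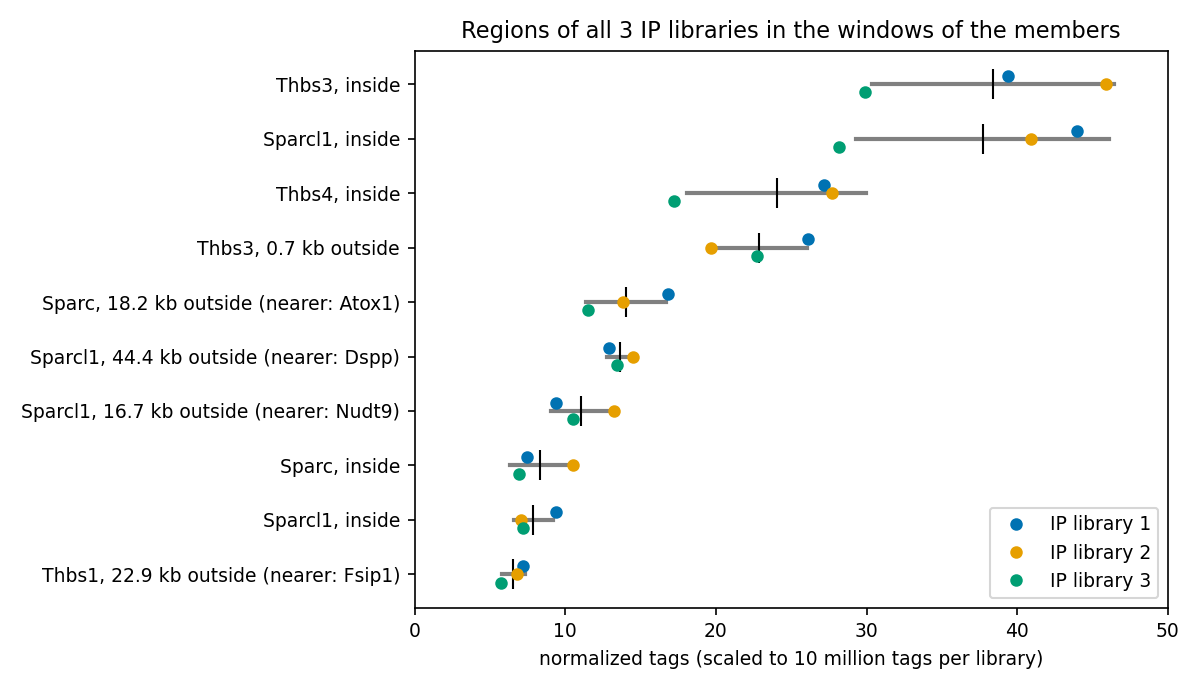
Authors' normalized tags (horizontal axis) of the 10 reproducible regions in the windows of the 6 genes (rows), with 1 coloured point per IP library, a black tick at the mean and a grey bar of 1 SD to each side. The regions inside Thbs3 and Sparcl1 stand at 38.4 and 37.7, and those of the bottom rows at 6.55 to 8.29.

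**Figure D3:**
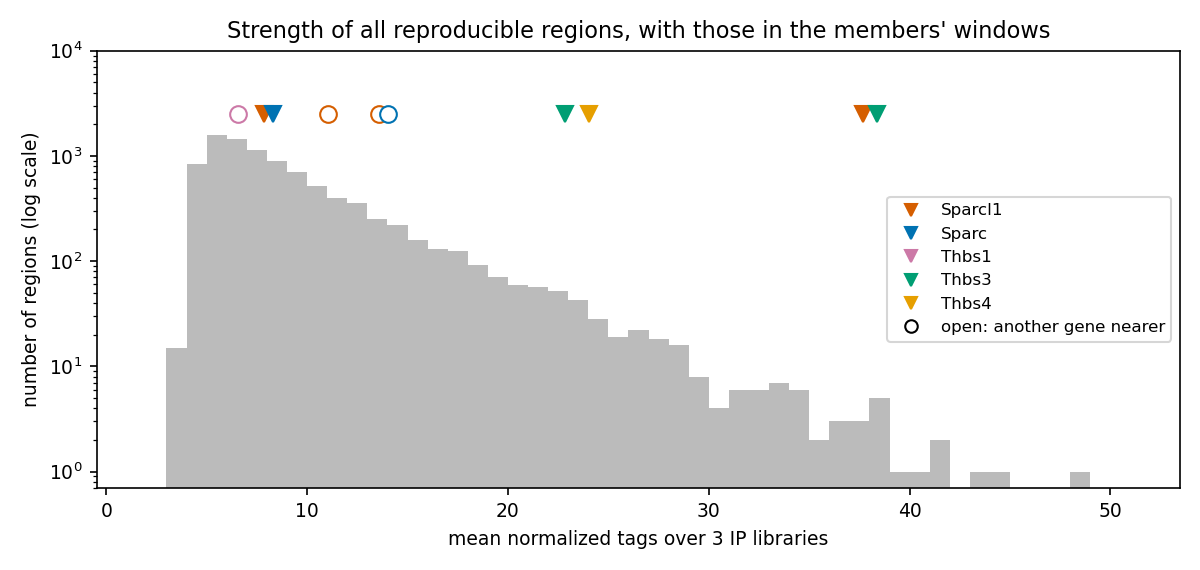
Number of reproducible regions of the whole genome (vertical axis, log scale) by mean normalized tags over the 3 IP libraries (horizontal axis, bins of 1), with the 10 regions of the members' windows marked above at their means; filled marks have a member as nearest protein-coding gene, open marks another gene. The filled marks of Sparcl1 and Thbs3 at 37.7 and 38.4 lie in the far right tail, and the median of the distribution is 7.63.

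IP library 3 gave lower values than the others at many regions of the genome. Over all reproducible regions its strength was a median of 0.843 times the mean of libraries 1 and 2, and it was the lowest of the 3 at 60.1% of them. Among the 371 regions of at least 20 normalized tags, which are 3.97% of all reproducible regions, it was the lowest at 79.2%. In the windows of the 6 genes it was the lowest at 6 of 10 regions, with ratios from 0.627 at Thbs4 to 0.991 at the second Thbs3 region. The part of this difference in the spread at each gene was not tested.

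Of the SPARC family members, Sparcl1 had the strongest single region. The span of Sparcl1 covers 35.0 kb (chr5:104079108-104114088, mm10), and its table entry here gives no strand. Its strongest region (chr5:104110527-104110728) lay inside the gene, 3.46 kb from the high-coordinate end, and also inside LOC330143, a long non-coding RNA gene that overlaps Sparcl1. The peak held 44.0, 40.9 and 28.2 normalized tags in IP libraries 1, 2 and 3. It was among the highest of each library, at places 6, 15 and 31, and the value of library 3 lay apart from the other two. The exact Poisson 95% interval of library 3, from 23.3 to 33.7, did not reach that of library 1, from 37.5 to 51.4, or that of library 2, from 34.3 to 48.5; these intervals cover counting error only. On a scale shared by IP and input, the authors' values were 145 IP tags against 1.0 input tags with library 1, 133 against 0.5 with library 2, and 92.8 against 1.0 with library 3. The input value of 0.5 is the authors' floor, so the 269.7-fold enrichment of library 2 depends on that floor. Libraries 1 and 3 had 145-fold and 92.8-fold, each against only 1.0 input tags, so these folds are imprecise too. Compared with the surrounding 10 kb of the same IP library, the peak was 13.1 to 16.5 times as dense.

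A second reproducible region inside Sparcl1 (chr5:104101948-104102110) was much weaker, with 9.36, 7.08 and 7.16 normalized tags in IP libraries 1, 2 and 3 and 7.77-fold to 15.4-fold enrichment over the input. It lay 12.1 kb from the high-coordinate end, and its mean of 7.87 was close to the median of 7.63 over all reproducible regions. Just outside the low-coordinate end, at 0.433 kb, IP library 1 alone had a peak of 4.40 normalized tags.

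A pair of further reproducible regions in the Sparcl1 window lay nearer to other genes. The one at chr5:104158396-104158571 lay 44.4 kb from Sparcl1 and 12.2 kb from Dspp, which encodes a dentin protein of teeth, and held 12.9, 14.5 and 13.4 normalized tags in IP libraries 1, 2 and 3. The libraries were close to each other there, with an SD of 0.819. The other lay inside Nudt9, which encodes an ADP-ribose pyrophosphatase, 16.7 kb from Sparcl1, and held 9.36, 13.2 and 10.5 normalized tags.

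The Nudt9 region is the only reproducible region of the 6 windows whose bases are covered whole by the sequence tables used here, and it is shown for that reason. It lies in the promoter window of Gm52783, a long non-coding RNA gene, and its 212 bases on the minus strand (chr5:104062332-104062543, RefSeq, GRCm38.p6) are as follows. Capitals would mark the SOX core letters ACAAAG or ACAAT or their complements CTTTGT and ATTGT, and none were found.
Region in Nudt9: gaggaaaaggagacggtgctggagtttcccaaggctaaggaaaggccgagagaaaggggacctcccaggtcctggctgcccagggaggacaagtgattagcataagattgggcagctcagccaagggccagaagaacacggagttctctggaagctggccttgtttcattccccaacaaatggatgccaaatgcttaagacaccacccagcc
One or other of these letters is present in 34.7% of the same 212-base stretch of all 32851 promoter windows of the table. The absence says only that these letters are not in this stretch.

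Sparc, which encodes the collagen-binding matrix protein that counteracts hevin, had a modest region close to its start. The gene covers 25.9 kb on the minus strand (chr11:55394159-55420080), and the region (chr11:55419254-55419536) was centred 0.685 kb into the gene from the start. It held 7.43, 10.5 and 6.93 normalized tags in IP libraries 1, 2 and 3, with library 2 the highest. On the shared scale the values were 24.5 IP tags against 3.0 input tags, 34.0 against 3.0 and 22.8 against 2.0. The 3 peaks shared only 29 bases, and with an overlap of at least 0.5 of both lengths required between peaks this region was no longer found in all 3 libraries. A reproducible region within 1 kb of the start was present at 9.12% of the 17492 protein-coding genes whose strand is known from the promoter table. This 1 kb distance was not set in advance, and no test was made.

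The 300 bases around the start of Sparc hold no peak, although the region begins 495 bases from that window, and are shown as the start nearest to a reproducible region among these genes (chr11:55420031-55420330, minus strand, RefSeq, GRCm38.p6). They contain none of the SOX core letters named above, and 42.9% of all promoter windows contain at least 1 of them.
Sparc promoter: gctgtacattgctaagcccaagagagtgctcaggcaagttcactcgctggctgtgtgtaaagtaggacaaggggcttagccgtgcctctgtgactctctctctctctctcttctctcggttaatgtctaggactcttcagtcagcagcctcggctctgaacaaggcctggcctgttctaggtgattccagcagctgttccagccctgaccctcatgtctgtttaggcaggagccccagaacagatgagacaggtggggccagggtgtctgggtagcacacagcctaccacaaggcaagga

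The strongest region in the Sparc window was not in Sparc. At chr11:55438163-55438349, 18.2 kb before the start of Sparc, IP libraries 1, 2 and 3 held 16.8, 13.8 and 11.5 normalized tags, with 27.6-fold, 11.4-fold and 12.6-fold enrichment over the input. Atox1, which encodes a copper chaperone, was nearer to it, at 8.38 kb. A region with peaks in IP libraries 2 and 3 lay at the start of Atox1 with 4.31 and 3.82 normalized tags, and single-library peaks of 6.33 and 4.78 lay at the start of G3bp1, which encodes a stress granule protein. On the other side, 24.9 kb from Sparc, IP libraries 1 and 3 had a peak of 5.78 and 5.73 normalized tags, for which Sparc was the nearest protein-coding gene.

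Among the thrombospondins, Thbs3 had the strongest SOX2 region, and it had a neighbour of similar class. Thbs3 encodes a member of the pentameric thrombospondins and covers 11.7 kb on the plus strand (chr3:89215180-89226841). The stronger region (chr3:89225996-89226174) lay inside the gene, 0.756 kb from its far end, and held 39.4, 45.9 and 29.9 normalized tags in IP libraries 1, 2 and 3. It was at places 15, 5 and 25 in these libraries. The authors' values on the shared scale were 129.7 IP tags against 1.0 input tags, 149 against 1.0 and 98.3 against 1.0. With so few input tags the enrichment over the input is imprecise. The density over the surrounding 10 kb was 22.1 to 30.3 times, and the tags were tightly placed, with a fraction of 0.87 to 0.925 where the peak centre predicts them.

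The second region (chr3:89227404-89227594) lay 0.658 kb beyond the far end of Thbs3 and held 26.1, 19.7 and 22.7 normalized tags in IP libraries 1, 2 and 3. Here library 2 was the lowest and not library 3. The authors' folds of IP over input were 28.7, 21.6 and 24.9, and the region stood at place 209 of 9334, in the strongest 2.24%. Thbs3 was the nearest protein-coding gene to both regions, but other genes without a protein product were as near or nearer. The stronger region was also inside LOC115489723, a long non-coding RNA gene on the minus strand (chr3:89225534-89227109).

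Between the pair of regions lies Mir92b, the gene of microRNA 92b, a small regulatory RNA expressed in neural progenitors. Its hairpin (chr3:89227116-89227198, minus strand) begins 275 bases past the end of Thbs3, and 941 bases separate it from the stronger region and 205 bases from the second. The centre of the second region was 0.301 kb from the hairpin, nearer than to Thbs3. Since the hairpin and LOC115489723 are on the minus strand, this region lay before both, 0.39 kb from the start of LOC115489723. The mature sequences are shown since the nearest annotated gene of the second region is this microRNA; capitals mark the seed, bases 2 to 8 of the mature strand (RefSeq, GRCm38.p6).
mmu-miR-92b-3p: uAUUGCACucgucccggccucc
mmu-miR-92b-5p: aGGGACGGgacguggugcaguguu

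The closeness of 2 strong regions at this place was uncommon. Of the 371 reproducible regions of at least 20 normalized tags, only these 2, or 0.539%, had another such region within 2 kb. With a minimum of 15 tags there were 8 such neighbouring pairs among 948 regions, the one at Thbs3 included, and with a minimum of 10 there were 63 among 2691. A reproducible region within 2 kb was found for 44 of 1228 microRNA genes, a background of 3.58%. Mir92b was the only one with 2, so the share of 0.0814% is Mir92b itself and gives no separate background. Its stronger region was the strongest near any of the 44. These distances and minimums were chosen after the values were seen, and no test was made. Peak positions do not show whether the regions act on Thbs3, the long non-coding RNA gene, Mir92b, another gene or none.

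**Figure D4:**
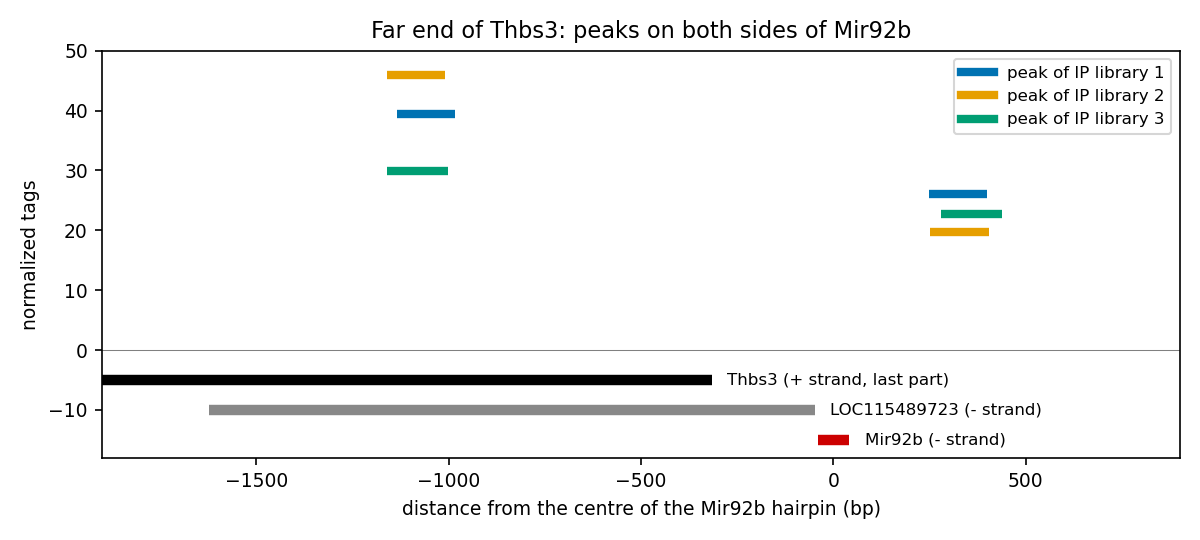
Authors' normalized tags (vertical axis) of the SOX2 peaks at the far end of Thbs3 against the distance in bp from the centre of the Mir92b hairpin (horizontal axis), with 1 horizontal bar per peak as long as the peak and 1 colour per IP library; the bars below 0 are the last part of Thbs3, LOC115489723 and Mir92b. The peaks of 29.9 to 45.9 lie on the Thbs3 side and those of 19.7 to 26.1 on the other side of the hairpin.

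The start of Thbs3 held no peak, and the nearest reproducible region began 10767 bases from its promoter window (chr3:89214930-89215229, plus strand, RefSeq, GRCm38.p6). The window is shown because it was the only one of the 4 members' windows in the table, those of Sparc, Thbs2, Thbs3 and Thbs4, that holds a SOX core. The capitals mark CTTTGT, the complement of ACAAAG, at bases 163 to 168 of the window.
Thbs3 promoter: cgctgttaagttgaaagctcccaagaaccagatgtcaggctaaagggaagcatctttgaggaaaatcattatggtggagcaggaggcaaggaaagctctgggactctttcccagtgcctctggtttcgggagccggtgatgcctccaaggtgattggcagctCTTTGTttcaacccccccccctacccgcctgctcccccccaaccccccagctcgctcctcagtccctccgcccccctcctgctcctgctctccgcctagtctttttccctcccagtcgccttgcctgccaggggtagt
ACAAAG or its complement was present in 18.7% of all promoter windows, and in 22.2% of the 1566 windows that hold the centre of a reproducible region. The single match in a window without a peak is a description only.

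Thbs4, which encodes another pentameric thrombospondin, also had its strong region at the far end of the gene. The gene covers 43.2 kb on the minus strand (chr13:92751586-92794818), and the region (chr13:92751912-92752077) was centred 0.408 kb inside its far end, 42.8 kb from the start. It held 27.2, 27.7 and 17.2 normalized tags in IP libraries 1, 2 and 3, with library 3 apart from the others. The authors' values on the shared scale were 89.8 IP tags against 3.0 input tags, 90.0 against 3.0 and 56.6 against 3.0. The peak stood out more sharply from its surroundings than that of Sparcl1, with 25.5 to 35.8 times the density of the 10 kb around it, and no other gene was nearer. Over the genes of known strand, 1.12% had a reproducible region within 1 kb of the far end, and Thbs3 and Thbs4 were 2 of the 4 members whose strand is known. Sparcl1 and Thbs1, of unknown strand here, are left out of this count. The 1 kb distance was not set in advance and takes in both observed distances, so the share is a description and was not tested.

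The remaining peaks in the Thbs4 window lay near its edge and inside or next to neighbours. IP libraries 1 and 2 had a peak of 7.43 and 5.23 normalized tags inside Serinc5, 48.0 kb from Thbs4, and IP library 1 had one of 4.95 at the start of Mtx3, 49.9 kb away. In the Thbs3 window, far from the gene, single peaks of 3.58 normalized tags were found in IP library 1 inside Scamp3 and Gm45927 and in IP library 3 inside Dpm3.

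Thbs1 and Thbs2, which encode the trimeric thrombospondins made by immature astrocytes, had no peak in or next to the gene. The only region within 50 kb of Thbs1 (chr2:118111876-118127133) lay 22.9 kb outside it, inside Fsip1, at chr2:118149977-118150158. It held 7.16, 6.77 and 5.73 normalized tags in IP libraries 1, 2 and 3, with 11.8-fold, 11.2-fold and 9.44-fold enrichment over the input. For Thbs2 (chr17:14665500-14694262, minus strand) no library had a peak within 50 kb. The nearest peak of any library was 131 kb away and belonged to 1 library, and the nearest reproducible region was 211 kb away with 5.77 normalized tags. A peak needed at least 14, 13 and 16 tags in IP libraries 1, 2 and 3, so weaker binding at either gene was not detectable at this depth.

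Genes related by family or function were also looked up. Of 26 such genes, 17 had a reproducible region within 50 kb, against the background of 46%, and 14 were nearest to one, against 22.6%. Calr, Stab1 and Ccn3 had regions within 50 kb to which other genes were nearer. Several of these genes are very long, which places more sequence nearest to them, so the shares are a description. Of 12 receptors and partners, 7 were nearest to a reproducible region. Nlgn1, which encodes a postsynaptic adhesion protein, spans 911 kb and was nearest to 3 such regions, the strongest with 9.36, 15.1 and 10.3 normalized tags in IP libraries 1, 2 and 3. The integrin genes Itgav and Itgb1, whose products are cell surface receptors for matrix proteins, had a strongest region of 15.1 ± 1.45 and 14.3 ± 2.96 normalized tags (SD, n = 3), with 13.6 to 16.5 and 11.2 to 17.1 over the libraries. Cacna2d1, the thrombospondin receptor gene of neurons, had 1 region of 7.43, 5.23 and 4.54 normalized tags, below each library's median over reproducible regions, which was 8.26, 8.0 and 6.93. Lrp1, Lrp8 and Vldlr, genes of lipoprotein receptors, had 5.82 ± 1.57, 8.28 ± 0.837 and 8.86 ± 1.67.

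Of the 6 other SPARC family genes, Smoc1, Fstl1 and Spock1 were nearest to a reproducible region, with 8.46 ± 1.95, 6.52 ± 0.339 and 7.71 ± 0.479 normalized tags (SD, n = 3). Smoc2, Spock2 and Spock3 had none within 50 kb, nor did Comp, the remaining thrombospondin gene. Of the 7 other matricellular genes, 4 were nearest to one. Tnr, which encodes tenascin-R of the perineuronal matrix, had 20.6, 19.1 and 13.9 normalized tags inside the gene. Spp1, which encodes osteopontin, had 18.4, 15.1 and 14.1 at 27.1 kb outside it. Ccn1 had 10.4 ± 3.05 and Postn 5.79 ± 1.42. None of these strongest regions reached the 37.7 of Sparcl1 or the 38.4 of Thbs3.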

How the data were processed

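SOX2 ChIP-seq peaks of 3 IP libraries, each with 1 input library as control, were used. Build mm10 and the tools Bowtie 1.0.0 and HOMER 4.7 are listed in the submitters' processing notes. Per the file headers, findPeaks ran in factor mode on 1 IP library at a time. The authors kept peaks at a false discovery rate of 0.001 that passed a Poisson p-value of 0.0001 and 4-fold enrichment against the input, and both again against the surrounding 10 kb. The normalized tags are a signal deposited by the authors at a library total of 10000000. IP tags per peak were deposited as counts for library 2, and for libraries 1 and 3 as a signal on the scale of the input library. The folds are ratios that the authors took of IP to input tags, with a floor of 0.5 input tags. The deposited score counts tags with a limit per bp of 1 (libraries 1 and 2) or 2 (library 3); it served to rank peaks in 1 alternative. The deposited focus ratio is a fraction. Libraries held 36330529, 32492927 and 41875666 tags.

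Whole tags for the Poisson intervals were recovered from normalized tags to within 0.208 tags. Peaks were joined by chained overlap of 1 bp or more, and a region took its strongest peak in each library. Spans came from a RefSeq table of GRCm38.p6, with 21887 protein-coding genes on chromosomes 1 to 19, X and Y; strands came from the promoter table, which covers 4 of the 6 members. No genome sequence was used. Joining and assignment were tested on simulated data. The simulated peaks of a place overlapped widely and the places lay far apart, so slight overlaps like that in Sparc were not covered. Differences between members were also tested paired by IP library, since both regions of a pair were read in the same libraries. The work used scipy 1.17.1, pandas 2.3.3 and numpy 2.4.6 in Python 3.11.15, and matplotlib 3.10.9 for the plots. The alternatives were a stricter overlap, stronger peaks, 2 of 3 libraries, each library left out, and other windows. The genes and lists were chosen with earlier results of these data known; 1 gene of the related list is not reported here, and the counts leave it out. The text names all 6 genes, each protein-coding gene nearer to a reproducible region, and the listed related genes that have one, with their values; Calr, Stab1, Ccn3, the other genes named at weak peaks and the non-coding genes were added after their positions were seen.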

Additional observations from a re-analysis of the deposited data

How the results depend on the processing

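Of 79 recomputed values over the member counts, the region count and the strongest region of 5 genes, 73 stayed within 1.5 times the count or 1 SD of the mean, and 6 moved; in 3 further cases Thbs1 had no region left. Some of the 73 could not have moved. The mean of a region cannot shift by 1 SD when 1 of 3 libraries is left out. The strongest regions of Sparcl1, Thbs3 and Thbs4 lie inside the gene, so a smaller window keeps them. The 10 reproducible regions became 6 within 10 kb of the genes and 5 inside them. The strongest region of Sparc became 8.29 normalized tags instead of 14.0 with the 10 kb window, with the gene span alone, and with only regions to which no other protein-coding gene is nearer. That of Thbs1 became 12.2 instead of 6.55 with a 100 kb window; it had none with 10 kb, with the span alone, or with only regions to which no other protein-coding gene is nearer. The setting on the nearest gene and the 100 kb window were chosen after the data were seen. Leaving out each IP library gave 11 regions each time and 5 genes within 50 kb, and with an overlap of 0.5 of both lengths Sparc was no longer nearest to a region (3 of 6 genes). The IP libraries pair the members by construction. With the library as a replicate block, exact permutation tests of 3 pairs gave p = 0.25 for 9 pairs and p = 0.75 for Thbs3 minus Sparcl1 (0.70 normalized tags). The smallest possible p is 0.1 without pairing and 0.25 with it, so neither test could make a call that pairing might change. The paired test was added after the data were seen. The input has 1 library and cannot be paired. Regions near the minimum of 13 to 16 tags may be missed in a library through counting noise alone.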

Other observations

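Just beyond 50 kb the windows of 3 genes held reproducible regions that another gene encloses or borders. At 62.3 kb from Thbs4, inside Mtx3, IP libraries 1, 2 and 3 held 19.3, 17.2 and 12.2 normalized tags. At 76.7 kb from Thbs1, inside Fsip1, they held 12.4, 12.3 and 11.9, almost the same in every library and stronger than the Fsip1 region counted for Thbs1. At 57.2 kb from Sparcl1, at the start of Hsd17b11, they held 4.13, 5.54 and 4.78. The first reproducible region of more than 20 normalized tags near Thbs2 was 249 kb away, inside Wdr27, with 20.6 ± 5.57 (SD, n = 3).

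The seed of miR-92b-3p is shared by 6 mature microRNA names from 7 genes in the RefSeq table, and Mir92b was the only one of the 7 genes with a reproducible SOX2 region within 2 kb. The relatives are shown with the seed in capitals.
mmu-miR-92b-3p: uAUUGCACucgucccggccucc
mmu-miR-92a-3p: uAUUGCACuugucccggccug
mmu-miR-25-3p: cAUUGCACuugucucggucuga
mmu-miR-32-5p: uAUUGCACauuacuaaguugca
mmu-miR-363-3p: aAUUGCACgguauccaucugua
mmu-miR-367-3p: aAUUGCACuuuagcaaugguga
The nearest reproducible region was 6.75 kb from Mir25 with 7.33 normalized tags, 17.9 kb from Mir367 with 6.29, 37.5 kb from Mir92-1 with 7.31 and 65.6 kb from Mir32 with 7.26. For Mir363 and Mir92-2, both on chromosome X, it was 3856 kb away. This family was looked up after the position of Mir92b was seen, and no test was made.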
